A study of Drosophila melanogaster with 12 samples.

Results

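Phototransduction is the reaction chain by which a photoreceptor turns absorbed light into a change in membrane voltage. The 33 genes described here were taken from the table by their gene names. Of them, 32 act in this chain in the *Drosophila* eye or support it, some from other tissues. The other, *hdc*, is headcase in the table, and not the histidine decarboxylase gene *Hdc*. Rhodopsin genes were left out of the set. All 33 names were found among the 13962 genes of a table of transcript levels in adult heads, with 121 of its 30738 transcript isoforms. Tau heads came from *elav-GAL4*/+ flies that also carried *UAS-tauR406W*/+, so that human tau with the R406W substitution was produced in all neurons under the *elav* promoter. Control heads came from flies with *elav-GAL4*/+ and no tau transgene, so both genotypes carried the driver. Each genotype had 3 libraries of polyA RNA, each from a pool of 500 heads at 10 days of age, with males and females in equal number, and the RNA was sequenced directly on nanopores without conversion to cDNA.

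In fly photoreceptors, light-activated rhodopsin switches on a Gq protein, which switches on a phospholipase C encoded by *norpA*. Cleavage of the membrane lipid PIP2 by this enzyme leads to the opening of the cation channels TRP and TRPL in the rhabdomere, the stack of microvilli that holds rhodopsin. Arrestins then bind the activated rhodopsin and end its signal, while calcium, calmodulin and a set of lipid enzymes shut off the response and restore the membrane. The chromophore of fly rhodopsins is made from carotenoids taken up with the food, by genes of which several belong to the set.

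Levels are given in TPM, the deposited unit. It is the share of a library's reads assigned to a transcript, scaled to a sum of 1000000 and not divided by length, since a direct RNA read comes from a single molecule. The steps between low values showed that 684408, 1329914 and 1024721 reads had been assigned in tau replicates 1, 2 and 3, and 910700, 759740 and 573001 in control replicates 1, 2 and 3. The level worth 3 reads was between 2.26 and 4.38 TPM in tau libraries and between 3.29 and 5.24 TPM in control libraries, and values at or below it were read as indistinguishable from 0. This floor covers counting error only. Among markers of the tissue, 5 rhodopsin genes summed to between 30818 and 36305 TPM in tau and between 24703 and 27582 TPM in control. Transcripts of *elav*, which marks neurons and whose promoter drives the transgene, were at 0 to 2.63 TPM over the 6 libraries, while the other neuronal markers gave most of a sum of 362 to 575 TPM in tau and 433 to 568 TPM in control. Sums of the 6 glial, 4 muscle and 3 blood cell markers overlapped between genotypes, and the muscle gene *TpnC4* was at 0 in every library. Fat body markers, mainly yolk protein genes, summed to between 27839 and 37493 TPM in tau and between 35300 and 43457 TPM in control, and their part in the values below was not tested.

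No member of the set passed the test between tau and control heads. Of the 33 genes, 31 reached a mean level of 5 TPM and were tested with limma on log2(TPM + 1), and 0 had an adjusted p of 0.05 or less after Benjamini-Hochberg adjustment over all 8960 tested genes, of which 1.08% passed. The lowest adjusted p of a member was 0.383. At an unadjusted p under 0.05 there were 2 members, *inaF-B* and *ninaA*, or 6.45% of those tested, against 8.15% of all tested genes. With limma voom on recovered reads, 0 members passed, against 1.14% of all genes, and 3 had an unadjusted p under 0.05, against 8.21%, the lowest adjusted p being 0.390. Log2 changes of tau over control were positive for 18 members (58.1%, against 45.3% of all tested genes) and negative for 13, with a median of 0.04, while the median over all tested genes was -0.04. Because these are whole heads, a lower level would not tell fewer photoreceptors from less RNA in each.

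The set as a whole made up about 2.08% of all assigned reads in both genotypes. Summed over the 33 genes, the level was 18899, 20784 and 22805 TPM in tau replicates 1, 2 and 3, and 20540, 22518 and 19431 TPM in control replicates 1, 2 and 3. These are means of 20829 ± 1953 TPM in tau and 20830 ± 1564 TPM in control (SD, n = 3 each). The genotypes overlapped in this sum (exact permutation test over 10 splits, two-sided, p = 1.0).

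**Figure D1:**
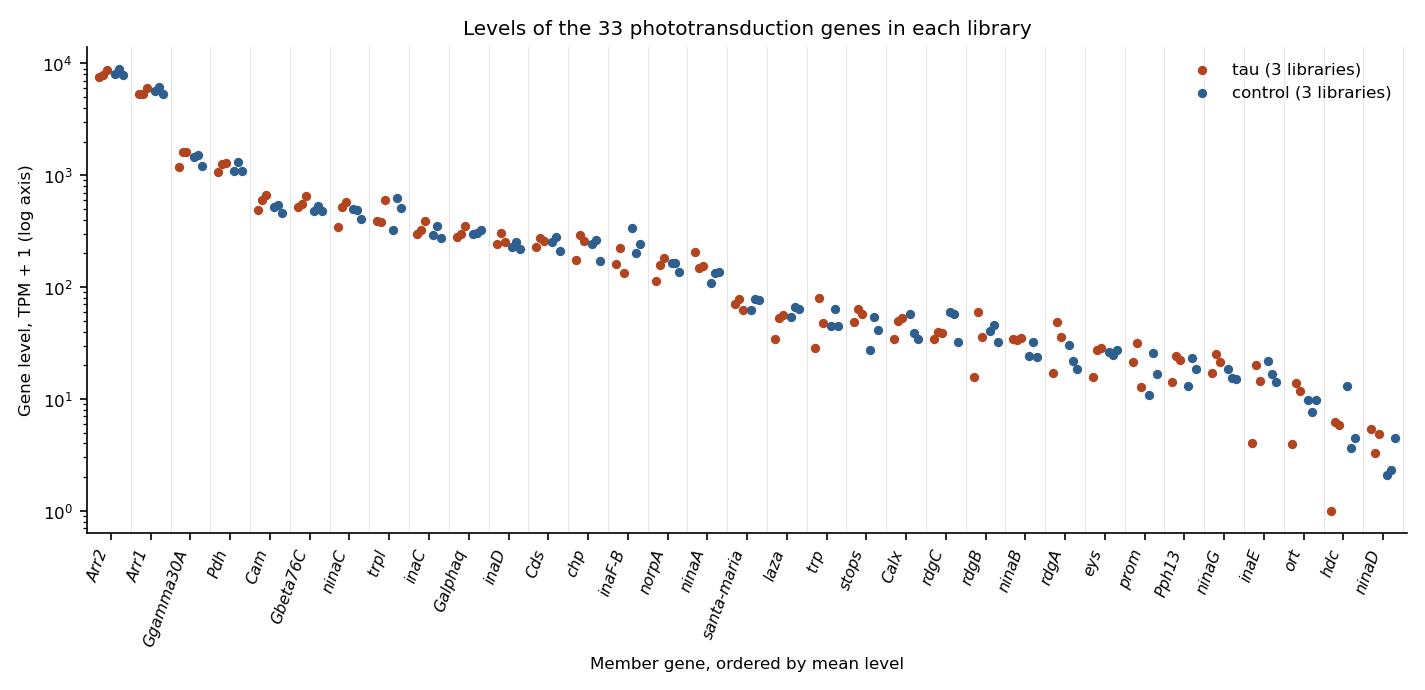
Level of each of the 33 genes in each library, as TPM + 1 on a log axis, with genes ordered from left to right by their mean and the 3 tau libraries drawn left of the 3 control libraries. The levels span from *Arr2* at a mean of 8168 TPM to *ninaD* at 2.74 TPM, and tau and control points lie apart in *ninaA* and *ninaB* alone.

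The 2 arrestin genes stood far above the other members. *Arr2* (Arrestin 2, chromosome 3L, 8647261 to 8648936), whose protein is the main arrestin of the rhabdomere, had 7534, 7926 and 8808 TPM in tau and 8029, 8896 and 7815 TPM in control. *Arr1* (Arrestin 1, chromosome 2L, 18078269 to 18081307), whose protein also takes part in the uptake of activated rhodopsin, had 5299, 5282 and 6088 TPM in tau and 5721, 6116 and 5305 TPM in control. They ranked 12 and 13 among all 13962 genes of the table by mean level. In both genes tau and control libraries were interleaved. The log2 change was -0.03 ± 0.08 (SE) for *Arr2*, with a 95% interval of -0.21 to 0.15, and -0.04 ± 0.09 for *Arr1*, with an interval of -0.23 to 0.14 (adjusted p = 0.973 and 0.965). On the linear scale these intervals run from 0.867 to 1.11 times control for *Arr2* and from 0.855 to 1.11 times for *Arr1*, the narrowest of the set. The ratio of *Arr2* to *Arr1* was 1.46 ± 0.04 in tau and 1.44 ± 0.04 in control (SD, n = 3 each). Together the arrestins made up 65.6 ± 2.19% of the summed level of the set in tau and 67.0 ± 0.435% in control. The sum of the set therefore rests mainly on these 2 genes. Without them it was 7183 ± 982 TPM in tau and 6869 ± 601 TPM in control (SD, n = 3 each), and the genotypes overlapped.

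Rhodopsin genes, which are not members but whose products the arrestins bind, gave a different picture. Their summed level was 30818, 31246 and 36305 TPM in tau and 24703, 27582 and 25101 TPM in control, and the genotypes did not overlap. Most of this sum came from *ninaE*, at 29759 ± 2969 TPM in tau and 23587 ± 1437 TPM in control (SD, n = 3 each). *ninaE* did not pass the limma test (adjusted p = 0.0710). Of the 5 rhodopsin genes measured, 1 passed the adjusted threshold, against 1.08% of all tested genes. It was *Rh4* (1775, 1849 and 1897 TPM in tau against 1199, 1331 and 1136 TPM in control, adjusted p = 0.00825). An unadjusted p under 0.05 was found for 4 of the 5, against 8.15% of all tested genes. *Rh6* was not analysed here. The arrestin sums overlapped, at 13646 ± 1099 TPM in tau and 13961 ± 964 TPM in control (SD, n = 3 each). The number of arrestin transcripts per rhodopsin transcript was 0.416, 0.423 and 0.410 in tau and 0.557, 0.544 and 0.523 in control. This ratio was lower in every tau library than in every control library, at 0.770 times the control mean (exact permutation test, two-sided, p = 0.1, the smallest that 3 against 3 libraries can give). The sum of all 33 members over the rhodopsin sum was 0.613, 0.665 and 0.628 in tau and 0.831, 0.816 and 0.774 in control, again without overlap (exact permutation p = 0.1). Both ratios were chosen after the levels had been seen. Of 13 sums and ratios compared in this way, 4 had genotypes that did not overlap, each with an adjusted exact permutation p of 0.325. These comparisons are not separate from each other. The member sum was entered both in TPM and as a percentage, and the rhodopsin sum and both ratios above rest on the same rhodopsin values.

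**Figure D2:**
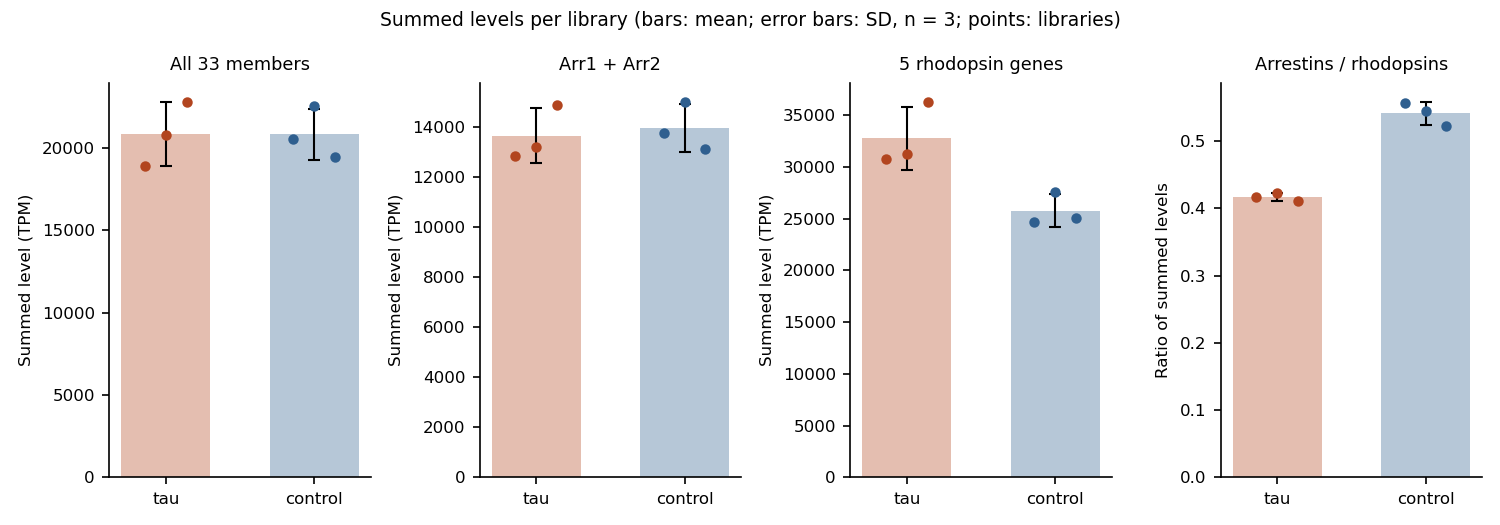
Summed level in TPM of the 33 members, of the 2 arrestin genes and of 5 rhodopsin genes, and the ratio of the arrestin to the rhodopsin sum, with tau left and control right. Bars are means, error bars are SD (n = 3) and points are libraries. The member sums overlap at means of 20829 and 20830 TPM, and the ratio lies between 0.410 and 0.423 in tau and between 0.523 and 0.557 in control.

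The Gq protein and phospholipase C, which carry the signal from rhodopsin, were measured well and did not pass the test. *Ggamma30A* (chromosome 2L, 9256563 to 9302494), which encodes the gamma subunit of the visual G protein, was the third most abundant member. Its level was 1176, 1622 and 1624 TPM in tau and 1457, 1518 and 1199 TPM in control. The lowest tau and the lowest control library were close to each other, and the log2 change was 0.07 ± 0.14 (SE, adjusted p = 0.960). *Gbeta76C*, the gene of the eye-specific beta subunit, averaged 577 ± 68.6 TPM in tau and 497 ± 32.8 TPM in control (SD, n = 3 each), with a log2 change of 0.21 and a 95% interval of -0.05 to 0.47. *Galphaq*, the gene of the alpha subunit that activates phospholipase C, averaged 310 ± 35.6 TPM in tau and 308 ± 13.7 TPM in control. For *norpA*, the phospholipase C gene, the means were 151 ± 35.4 TPM in tau and 155 ± 17.5 TPM in control. The 4 genes had adjusted p-values of 0.752 or more.

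Ratios between these genes are of transcripts in whole heads, not in photoreceptors alone, and *Galphaq* had 185 to 398 recovered reads per library. The ratio of *Gbeta76C* to *Galphaq* transcripts was 1.86, 1.85 and 1.87 in tau and 1.62, 1.76 and 1.47 in control. It was higher in every tau library, by 0.24 on average (exact permutation p = 0.1, the smallest possible), and was also chosen after its values had been seen. The ratio of *Ggamma30A* to *Gbeta76C* overlapped, at 2.56 ± 0.349 in tau and 2.80 ± 0.254 in control (SD, n = 3 each). *Galphaq* shares 3050 nt of exon sequence on the same strand with the gene *CG45086*, to which a mean of 4.91 TPM was assigned, and reads from that stretch cannot be told apart by gene.

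Among the light-activated channels and their partner, *inaF-B* had the lowest p-value of the set. *inaF-B* (chromosome X, 11724668 to 11732770, minus strand) encodes a small membrane protein needed for normal TRP channel function. Its level was 158, 222 and 132 TPM in tau and 339, 201 and 240 TPM in control. Tau replicate 2 was above control replicate 2, so the genotypes overlapped. The log2 change was -0.60 ± 0.22 (SE), 0.658 times control with a 95% interval of 0.476 to 0.910 and an adjusted p of 0.383. The difference was therefore not past the threshold over all genes, and it ranged from -0.81 without tau replicate 2 to -0.40 without control replicate 1. *inaF-B* lies in a cluster with *inaF-A*, *inaF-C* and *inaF-D*, which share exons with it on the same strand, and of these *inaF-D* was assigned the most, a mean of 2.82 TPM. The read assignment between them could not be checked from TPM values.

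Neither channel gene passed the test. *trpl*, which encodes the less calcium-selective channel subunit, averaged 457 ± 127 TPM in tau and 482 ± 152 TPM in control, and *trp*, which encodes the main calcium channel, 50.9 ± 25.5 TPM in tau and 50.2 ± 11.2 TPM in control (SD, n = 3 each). *trp* had 19 to 104 recovered reads per library. More reads were assigned to *trpl*, with a most abundant isoform of 3893 nt, than to *trp*, with one of 4149 nt, in every library. The factor was 14.1, 4.83 and 12.9 in tau and 7.30, 9.83 and 11.6 in control. This factor varied more among tau libraries than between the genotypes, and the lowest *trp* value, 27.8 TPM, was in tau replicate 1. On the linear scale the 95% intervals of tau over control ran from 0.586 to 1.53 times for *trp* and from 0.684 to 1.35 times for *trpl*. Differences within these bounds were not excluded.

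*inaD* and *inaC* encode the PDZ scaffold that holds the channel, phospholipase and kinase together in the rhabdomere, and the eye protein kinase C held by it. *inaD* averaged 266 ± 34.7 TPM in tau and 234 ± 16.9 TPM in control, and *inaC* 336 ± 47.4 TPM in tau and 305 ± 38.7 TPM in control (SD, n = 3 each). Log2 changes were 0.18 and 0.14, with 95% intervals of -0.12 to 0.48 and -0.17 to 0.45. The ratio of *inaC* to *inaD* transcripts was 1.28 ± 0.244 in tau and 1.30 ± 0.0699 in control.

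The genes of lipid turnover were a mixed group, with 2 positive and 3 negative log2 changes among 5. *Cds*, which encodes the CDP-diacylglycerol synthase of PIP2 resynthesis, was the most abundant, at 253 ± 21.7 TPM in tau and 246 ± 34.5 TPM in control (SD, n = 3 each). The others had means below 100 TPM. *laza*, which encodes a phosphatidic acid phosphatase, averaged 47.0 ± 11.8 TPM in tau and 60.4 ± 6.87 TPM in control, with a log2 change of -0.38 and a 95% interval of -0.88 to 0.12. *rdgB*, the gene of the phosphatidylinositol transfer protein that returns lipid to the microvilli, averaged 36.4 ± 22.4 TPM in tau and 38.6 ± 6.72 TPM in control. *rdgA*, the diacylglycerol kinase gene, averaged 33.1 ± 16.1 TPM in tau and 22.7 ± 6.26 TPM in control. *inaE*, the gene of a diacylglycerol lipase, averaged 11.9 ± 8.19 TPM in tau and 16.6 ± 3.95 TPM in control, and had the most negative log2 change of the set, -0.71, with an interval of -1.84 to 0.41. Its value in tau replicate 1, 3.01 TPM, was under that library's floor of 4.38 TPM. The intervals of *rdgA*, *inaE* and *rdgB* reached beyond 2-fold, so these libraries do not exclude a change of that size in these genes. All 3 genes were lowest in tau replicate 1, and the part of that library in the width of the intervals was not tested.

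Beside the arrestins, 5 genes end the light response or set its sensitivity. *Cam* (chromosome 2R, 12259398 to 12278809), the calmodulin gene, had 485, 599 and 667 TPM in tau and 515, 538 and 461 TPM in control. The highest 2 values were from tau, the others were mixed, and the log2 change was 0.20 ± 0.13 (SE, adjusted p = 0.803). Calmodulin is made in most cell types, so its level in heads is not that of photoreceptors. *ninaC*, which encodes a myosin III with a kinase domain that binds calmodulin in the rhabdomere, averaged 477 ± 118 TPM in tau and 465 ± 49.1 TPM in control (SD, n = 3 each), a log2 change of 0.01. *stops*, which encodes a SOCS box protein needed for timely termination of the response, averaged 55.7 ± 7.14 TPM in tau and 39.7 ± 13.2 TPM in control. Its log2 change of 0.52 was the most positive of the set, with an interval of -0.03 to 1.08 and an adjusted p of 0.653. *Calx*, the sodium/calcium exchanger gene, averaged 44.7 ± 9.74 TPM in tau and 42.8 ± 12.6 TPM in control. *rdgC*, the gene of the rhodopsin phosphatase, averaged 36.7 ± 2.66 TPM in tau and 49.1 ± 15.4 TPM in control.

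Genes of rhodopsin folding and of the chromophore held both members whose tau and control libraries did not overlap. Over all tested genes, 6.09% had every tau library above every control library and 6.93% every tau library below, 13% in all, against 2 of the 31 tested members, or 6.45%. *ninaA* (chromosome 2L, 877302 to 878270, plus strand) encodes a cyclophilin in the endoplasmic reticulum that is needed for the maturation of the main rhodopsin. Its level was 205, 147 and 154 TPM in tau and 109, 133 and 134 TPM in control. The highest value, from tau replicate 1, stood apart from the others, and the log2 change was 0.42 ± 0.17 (SE), with an adjusted p of 0.509. Without tau replicate 1 the log2 change was 0.27. *ninaA* lies in full opposite the gene *CG15824*, to which a mean of 1.01 TPM was assigned. *ninaB* (chromosome 3R, 13700565 to 13703164) encodes the carotenoid oxygenase that makes the chromophore precursor. Its level was 33.6, 32.3 and 34.2 TPM in tau and 23.1, 31.6 and 22.7 TPM in control. The lowest tau library lay just above the highest control library, and the log2 change of 0.38 had a 95% interval of -0.15 to 0.90 (adjusted p = 0.794).

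*Pdh* (chromosome 3L, 16353233 to 16354297) was the fourth most abundant member and encodes a retinol dehydrogenase of the visual cycle, found in pigment cells. Its level was 1064, 1253 and 1283 TPM in tau and 1090, 1302 and 1099 TPM in control. The libraries were interleaved, and the log2 change was 0.04 ± 0.11 (SE, adjusted p = 0.971). *santa-maria*, which encodes a scavenger receptor for carotenoid uptake into neurons and glia, averaged 69.7 ± 7.99 TPM in tau and 71.4 ± 8.68 TPM in control (SD, n = 3 each). *ninaG*, whose product forms the final hydroxylated chromophore, averaged 20.2 ± 4.00 TPM in tau and 15.3 ± 1.95 TPM in control, a log2 change of 0.37 with an interval of -0.27 to 1.00. *ninaD*, the gene of a scavenger receptor that takes up carotenoids in the gut, had 4.38, 2.26 and 3.90 TPM in tau and 1.10, 1.32 and 3.49 TPM in control. It was at or under the floor in 5 of the 6 libraries and was not tested.

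The remaining members, other than *hdc*, build the photoreceptor or act at its synapse. *chp*, which encodes chaoptin, an adhesion protein of the microvilli, averaged 241 ± 60.8 TPM in tau and 225 ± 47.6 TPM in control (SD, n = 3 each). *eys*, the gene of a secreted matrix protein that keeps rhabdomeres apart, averaged 22.8 ± 7.07 TPM in tau and 25.0 ± 1.26 TPM in control. *prom*, which encodes prominin, the partner of that matrix protein on the microvilli, averaged 21.0 ± 9.57 TPM in tau and 16.9 ± 7.63 TPM in control. *Pph13*, the gene of a homeodomain factor that activates photoreceptor genes, averaged 19.3 ± 5.41 TPM in tau and 17.3 ± 5.15 TPM in control. *ort*, which encodes a histamine-gated chloride channel that receives the photoreceptor signal in the lamina, averaged 8.81 ± 5.20 TPM in tau and 8.03 ± 1.26 TPM in control, and its value of 2.92 TPM in tau replicate 1 was under the floor. *hdc* (headcase) had 0, 5.26 and 4.88 TPM in tau and 12.1, 2.63 and 3.49 TPM in control, was at or under the floor in 3 libraries and was not tested. *Hdc*, which makes the photoreceptor transmitter histamine, had 13.2, 27.1 and 29.3 TPM in tau and 17.6, 14.5 and 20.9 TPM in control, with tau on both sides of control and an adjusted p of 0.913.

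**Figure D3:**
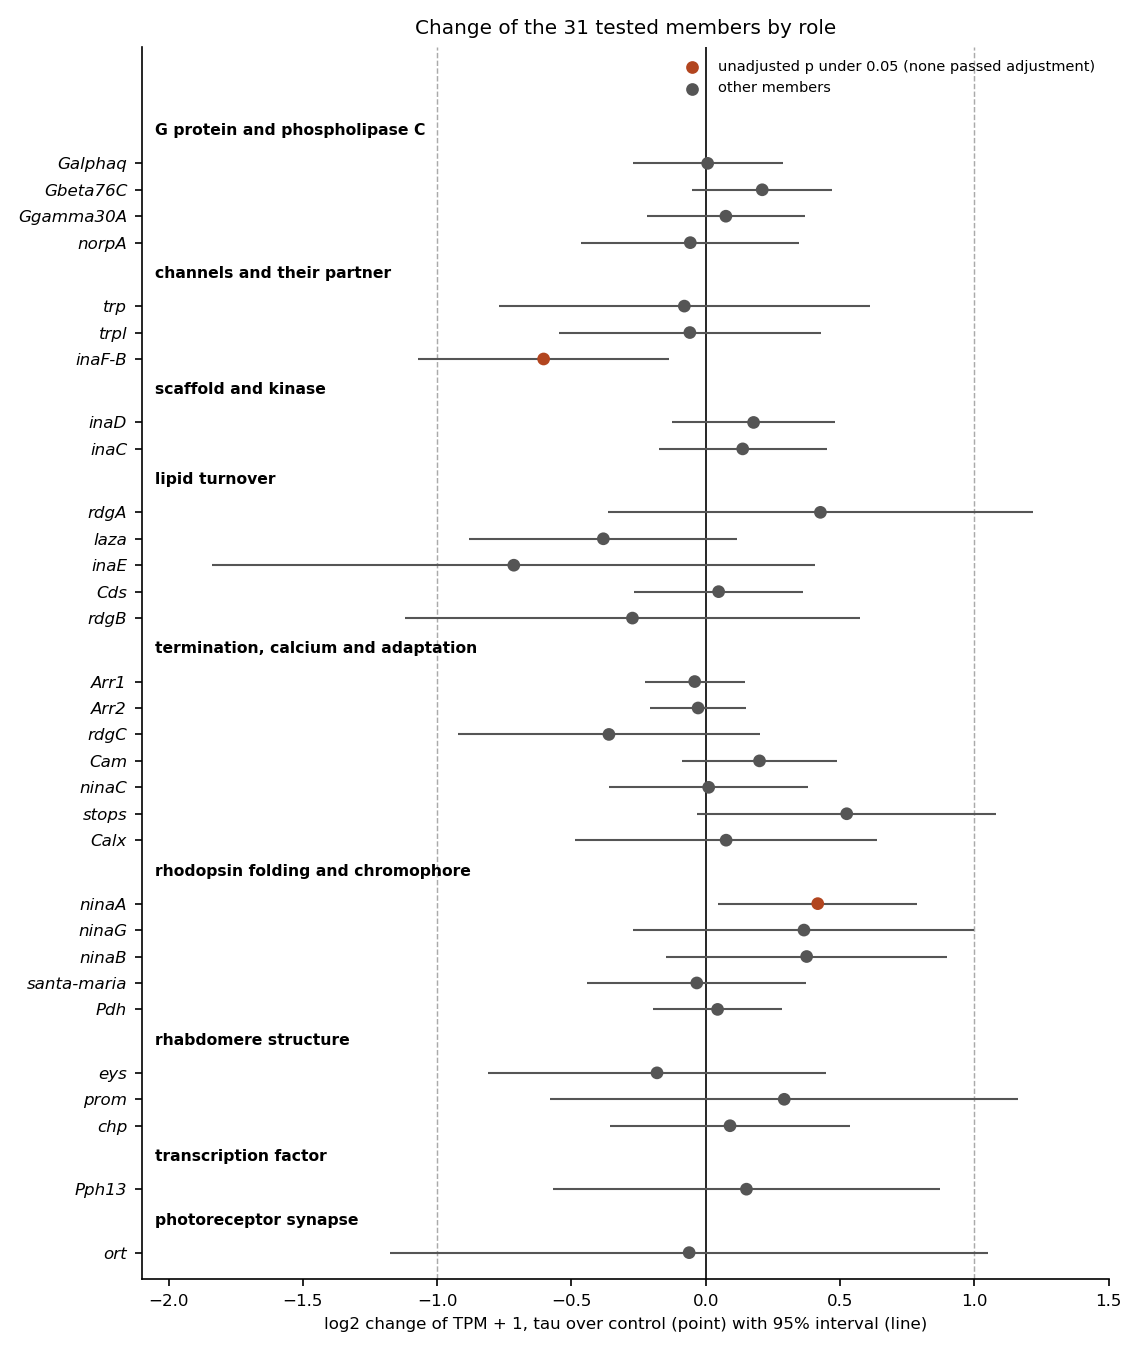
Log2 change of tau over control (points) with its 95% interval (lines) for the 31 tested members, grouped by role from top to bottom. Dashed lines mark a change of 2-fold. The points run from -0.71 for *inaE* to 0.52 for *stops*, and the intervals of *inaF-B* and *ninaA* leave out 0 before adjustment for the number of genes tested.

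Libraries varied less in the more abundant members. The place of a 95% interval against a fold bound depends on the estimate as well as on its width. Of the 16 members with a mean of at least 100 TPM, all of them tested, 15 had a 95% interval inside 2-fold and 14 inside 1.5-fold. The exceptions were *inaF-B*, whose interval reached past both bounds, and *ninaA*, whose interval reached past 1.5-fold. Their log2 changes were -0.60 and 0.42. Of the 15 tested members below 100 TPM, 8 had an interval inside 2-fold, and *santa-maria* alone had one inside 1.5-fold. Over the 31 tested members this makes 23 inside 2-fold (74.2%, against 56.3% of all tested genes) and 15 inside 1.5-fold (48.4%, against 16.7%). All tested genes were not matched to the members by level, so these percentages cannot be read as a trait of the set. The median coefficient of variation was 14.9% in tau and 10.9% in control for the members at 100 TPM or more, and 28.0% in tau and 22.3% in control for the others.

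Tau replicate 1 had low values for many of the members with long transcripts. It was the lowest of the 6 libraries for 13 of the 31 tested members, followed by control replicate 3, the smallest library, with 10. Of the 13 members whose most abundant isoform is 3000 nt or longer, tau replicate 1 was lowest for 7. The median log2 ratio of tau replicate 1 to the mean of the other 5 libraries was -0.51 for these 13 members and -0.14 for the 18 with shorter isoforms. All 8958 tested genes with a known length showed nearly the same pattern, with medians of -0.51 for 2277 long and -0.07 for 6681 shorter genes. Across the 31 members, the ratio and the length had a Spearman correlation of -0.58 in tau replicate 1, and of -0.22 to 0.47 in the other libraries. These correlations are across genes of single libraries, which share depth and handling. Without tau replicate 1 the median log2 change of the tested members was 0.23, against 0.03 over all genes tested in the same way, and 0 members passed. With all 6 libraries these medians were 0.04 and -0.04.

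**Figure D4:**
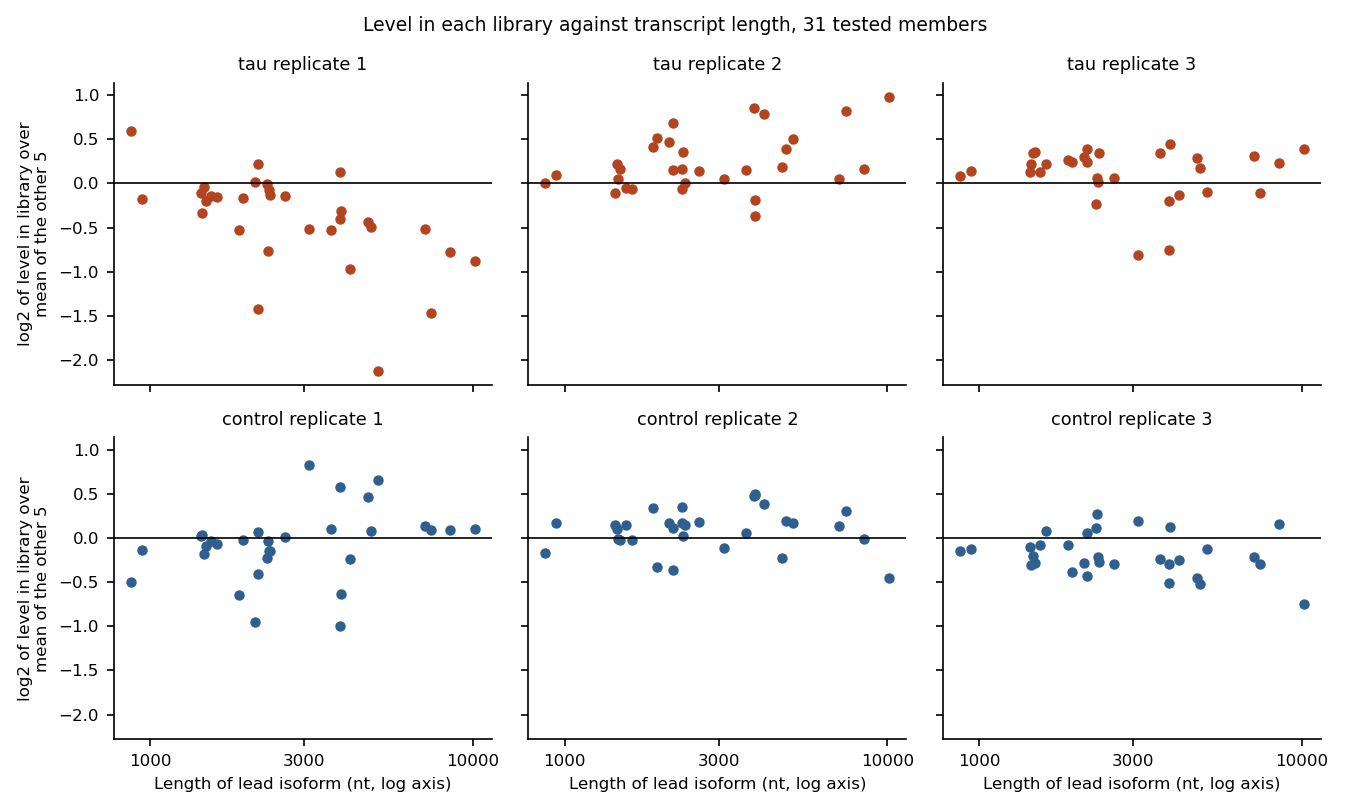
Log2 ratio of the level in each library to the mean of the other 5, against the length of the most abundant isoform on a log axis, for the 31 tested members, with tau libraries in the top row and control libraries in the bottom row. In tau replicate 1 the 13 members of 3000 nt or more have a median of -0.51 and the 18 shorter ones a median of -0.14.

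At the level of isoforms, 62 of the 121 member isoforms reached a mean of 5 TPM, from 30 of the members, and 0 passed an adjusted p of 0.05, against 0.758% of all 12800 isoforms tested with limma. The lowest adjusted p was 0.400. At an unadjusted p under 0.05 there were 6, or 9.68%, against 8.21% of all tested isoforms. These were the only isoforms of *inaF-B* and *ninaA*, whose values are those of the genes, and 2 isoforms each of *Cam* and *stops*. Of the 62, 17 had the same 6 values as another isoform of their gene, in 7 groups, and were not told apart by the reads. Among them are the isoform pairs of *trp*, *inaD* and *Cds* and all 5 isoforms of *chp*.

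*stops-RB* and *stops-RC*, which encode the same 445 residues and differ in the 5′ UTR, are such a pair. Each was assigned 19.2, 25.9 and 25.9 TPM in tau and 10.2, 16.1 and 16.8 TPM in control. Every tau library was above every control library, and the log2 change was 0.70 ± 0.29 (SE, adjusted p = 0.522). *stops-RA*, with a longer coding region of 521 residues, overlapped between genotypes, at 4.90 to 10.6 TPM in tau and 5.99 to 20.5 TPM in control.

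All *Cam* isoforms encode the same 149 residues and differ in their UTRs. *Cam-RA*, of 1488 nt and with a 3′ UTR of 831 nt, was the main one, at 330, 446 and 459 TPM in tau and 325, 351 and 301 TPM in control. It overlapped between genotypes, with a log2 change of 0.32 (adjusted p = 0.579). *Cam-RD*, of 3406 nt and with a 3′ UTR of 2827 nt, had 16.1, 22.6 and 25.4 TPM in tau and 13.2, 7.90 and 12.2 TPM in control. It was higher in each tau library, with a log2 change of 0.89 ± 0.31 (SE, adjusted p = 0.400).

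As shares of the gene's level, *Cam-RA* took 68.0%, 74.4% and 68.8% in tau and 63.1%, 65.2% and 65.2% in control, and *Cam-RD* took 3.31%, 3.76% and 3.81% in tau and 2.56%, 1.47% and 2.65% in control. Both shares were higher in every tau library than in every control library, the 2 cases of this among the 49 member shares tested, while 9.78% of all tested shares did not overlap in either direction. *Cam-RE*, which starts elsewhere and has the same 3′ UTR as *Cam-RA*, took 20.7 ± 5.05% in tau and 25.9 ± 1.39% in control, and *Cam-RC*, with the longest 3′ UTR of 5015 nt, 5.18 ± 1.52% in tau and 6.85 ± 1.72% in control (SD, n = 3 each). In the limma test of an isoform against the rest of its gene, 49 member isoforms of 17 genes were tested, 0 passed and 2 had an unadjusted p under 0.05, *Cam-RA* (adjusted p = 0.748) and *Cam-RD* (adjusted p = 0.744). All isoforms of *Cds*, *inaD*, *trp* and *chp* had identical values, so their shares were fixed in every library and could not show a change. Such fixed shares also entered the variance estimate that the test shares among isoforms. Over all 7567 isoforms tested in this way 0 passed and 6.55% had an unadjusted p under 0.05. A fit of resolved isoforms with a trend, which left out isoforms with identical values, was added after the data were seen. In it, 0 of 32 member isoforms passed, against 0.128% of all 5478. *Cam-RA* alone was under 0.05 before adjustment (adjusted p = 0.498), against 7.12% of all isoforms in that fit. The gene also shares 199 nt of exon sequence on its strand with a noncoding RNA.

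**Figure D5:**
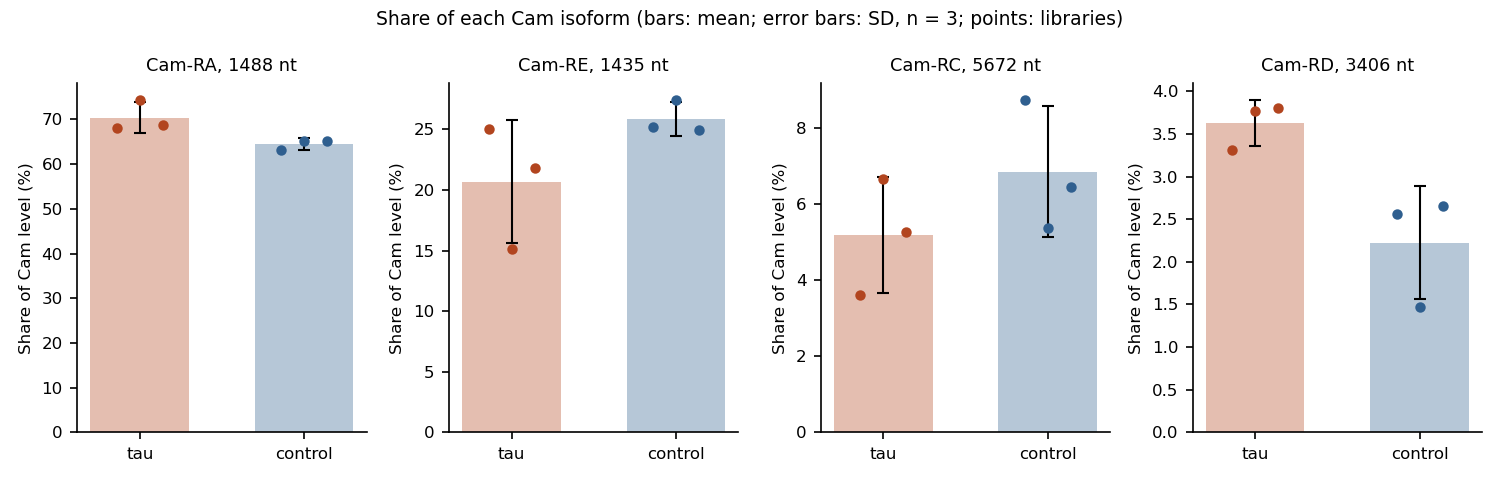
Share of the *Cam* level taken by each of 4 isoforms, in percent, with tau left and control right in each panel. Bars are means, error bars are SD (n = 3) and points are libraries. The points of *Cam-RA* and *Cam-RD* do not overlap between genotypes, while those of *Cam-RE* and *Cam-RC* do.

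Isoform shares of the other genes had an unadjusted p of 0.05 or more in the test. The long form of *ninaC*, *ninaC-RB*, which encodes 1501 residues, took 31.0 ± 7.63% of the gene's level in tau and 32.1 ± 6.06% in control (SD, n = 3 each), and *ninaC-RD*, which encodes 1135, took 63.9 ± 5.35% in tau and 62.6 ± 6.90% in control. *Ggamma30A-RF* took 69.2 ± 3.40% in tau and 70.4 ± 1.90% in control. *Galphaq-RD*, with the short 3′ UTR of 120 nt, took 94.1 ± 2.94% in tau and 91.7 ± 0.709% in control, and *Galphaq-RK*, with one of 4051 nt, took 3.57 ± 2.39% in tau and 5.45 ± 1.58% in control. In each of these isoforms the libraries of the genotypes overlapped. *rdgB-RE* was the 1 tested member isoform with all tau libraries lower, at 4.15 ± 1.36 TPM in tau and 7.10 ± 0.741 TPM in control (SD, n = 3 each), values near the floor, with an adjusted p of 0.792. Of the 62 tested isoforms, 6 had genotypes that did not overlap (9.68%, against 13.4% of all tested isoforms).

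A further list of 35 genes acts next to these members, in histamine recycling, channel and rhodopsin transport, phosphoinositide metabolism and eye development. All 35 were found, 34 were tested, 0 passed in either direction, against 1.08% of all tested genes, and the lowest adjusted p was 0.398. Their median log2 change was 0.11, against -0.04 over all genes, with 22 positive and 12 negative, against 45.3% positive over all. Genotypes did not overlap in 3 of the 34, *lovit*, *Rab11* and *Xport-B*, all higher in tau, against 6.09% of all tested genes in that direction. *Xport-B* and *Rab11* had log2 changes of 0.11 and 0.34 (adjusted p = 0.959 and 0.651). *Xport-B* (chromosome 3R, 19914320 to 19915412) covers the place of *Xport-A* (19914396 to 19915412) on the same strand. *Xport-A* overlapped between genotypes, and the read assignment between these 2 genes was not checked. The 1 gene with an unadjusted p under 0.05, against 8.15% of all, was *lovit*, which encodes a transporter needed for histamine storage in photoreceptor terminals. *lovit* had 67.2, 67.7 and 76.1 TPM in tau and 38.4, 51.3 and 54.1 TPM in control, without overlap, and a log2 change of 0.56 ± 0.20 (SE, adjusted p = 0.398).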

How the data were processed

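PolyA RNA from tau and control heads was sequenced directly on nanopores in 6 libraries, 3 of each genotype. Short-read libraries of the series were not used here. The authors called bases with Guppy, filtered reads on quality, aligned them to the FlyBase transcriptome with minimap2 and deposited the TPM that NanoCount estimated for each isoform, in which each library sums to 1000000. Their columns of a DESeq2 comparison hold a mean, fold changes and p-values and were not used. Reads per library were recovered from the smallest step between values. Isoforms were summed by gene ID, leaving out 37 isoforms without one, and 95.1% to 95.8% of gene sums above 0 were whole numbers of reads within 0.01 reads, against 47.2% to 50.7% of isoform values. limma (v3.58.1, R v4.3.3; lmFit, and eBayes with a trend except for isoform shares) was run on log2(TPM + 1) of genes and isoforms whose mean reached 5 TPM, two-sided, without covariates, and a Benjamini-Hochberg adjusted p of 0.05 or less was called. Fold changes on this scale understate the change of low genes. Isoform shares were tested as log2 of the isoform over the other isoforms of its gene, each with 1 TPM added. Single sums and ratios were compared by an exact permutation test. Alternatives were other pseudocounts and filters, size factors, a replicate block, leaving out each library, and limma voom on recovered gene reads, the last added after seeing the data. Steps were tested on simulated data. Coordinates and lengths came from the BDGP6.54 annotation (Ensembl release 115), which holds 30718 of the isoforms. Members were all named. Values per library were given for the 5 most abundant members and for tested members, isoforms or shares with an unadjusted p under 0.05 or without overlap. Of these, *rdgB-RE* was given by mean and SD. The untested members *ninaD* and *hdc* were also given per library. *Hdc*, the ratios and other isoforms were picked once their values were known. The members and lists were chosen with earlier results of these data known. Replicates are separate pools of heads. Tables and figures were made in Python (v3.11.15) with pandas (v2.3.3), numpy (v2.4.6), matplotlib (v3.10.9) and scipy (v1.17.1).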

Additional observations from a re-analysis of the deposited data

How the results depend on the processing

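The count of members past the threshold was 0 at the level of genes, isoforms and isoform shares under each alternative run, including other pseudocounts (0.5 and 5 TPM), a minimum mean of 20 TPM, no filter, size factors, limma voom and each library left out, and no member, member isoform or share named in the text was called under any of them. For genes outside the set, *Rh4* among them, values under the alternatives are not given. The median log2 change of the members ranged from -0.0070 to 0.23 with a library left out, with 0.23 without tau replicate 1, and the cause was not tested. Size factors were not applied to shares. Counting isoforms with identical values once left 52 member isoforms, none past the threshold. Adjusted p-values over the alternatives ran from 0.157 to 0.898 for *inaF-B* and from 0.382 to 0.774 for *ninaA*. Single changes under the alternatives were followed for *Ggamma30A*, *inaF-B*, *Arr1*, *Arr2*, *Cam*, *ninaA*, *ninaB* and *Pdh* alone among the member genes. Of these, signs turned for *Ggamma30A*, *Arr1*, *Arr2* and *Pdh* when single libraries were left out, all uncalled and with log2 changes between -0.11 and 0.23. Whether signs turned for the other members was not examined. Deviations of same-numbered tau and control libraries correlated at -0.0027, 0.07 and -0.07, and those of differently numbered ones at -0.15 to 0.16. With 3 libraries per genotype this cannot show whether same-numbered libraries were handled together. With a replicate block, 0 members, 0 isoforms and 0 shares passed, and the lowest adjusted p of a member was 0.519. Of the 15 tested members below 100 TPM, 7 had intervals that reached past 2-fold, and the parts of depth and of spread between libraries in this were not separated.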
